A study of Mus musculus with 6 samples.

Results

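The genes described here are 10 scavenger receptors, endocytic and phagocytic receptors and secreted products of tissue-resident or alternatively activated macrophages, out of 20138 genes in the table. They are Marco, Msr1, Cd163, Mrc1, Lyve1, Vsig4, Timd4, F13a1, Chil3 and Arg1, and all 10 were found by symbol. The list was selected on log2 folds and p-values of the same comparison that is described below, so the members' folds are a description and support no statement about macrophages as a group. Whole kidneys were taken at postnatal day 35 from 3 Pkd2-miR-214-KO mice, which carry Pkhd1Cre, floxed Pkd2 on both alleles and a null allele of miR-214, and from 3 Pkd2-KO mice, which carry Pkhd1Cre and floxed Pkd2 without that allele. Both genotypes therefore lack Pkd2 where Cre driven by the Pkhd1 promoter is active, which is mainly in tubule epithelium. The labels do not give the zygosity of the miR-214 allele or the cells it is missing from, and neither a wild-type kidney nor a kidney lacking miR-214 alone was compared. Single libraries were not analysed here, the depth is unknown, and the folds, mean levels and adjusted p-values below are the authors' own, with n = 3 per genotype.

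Resident macrophages clear debris, haemoglobin, modified lipoproteins and dying cells through scavenger and phagocytic receptors. Cells exposed to interleukin-4 or interleukin-13 through STAT6 enter the alternatively activated state, marked in mice by Arg1, Chil3 and Mrc1, while interleukin-10 and glucocorticoids raise Cd163. In polycystic kidneys of mice, macrophages of this kind gather around cysts and are known to promote tubule cell proliferation. Several of the 10 genes are not exclusive to such cells. Lyve1 marks lymphatic endothelium, and Mrc1 and Lyve1 mark liver sinusoidal endothelium. Arg1 is the urea cycle enzyme of hepatocytes, and Chil3 is made by neutrophils and monocytes.

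The deleted microRNA and its matches in the members are shown first, since the study asks which transcripts differ when miR-214 is missing. Mature sequences were taken from RefSeq on GRCm38.p6, with the seed, bases 2 to 8, in capitals. miR-214-3p lies at chr1:162223438-162223459 and miR-214-5p at chr1:162223397-162223418, both on the plus strand.
miR-214-3p: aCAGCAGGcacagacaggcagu
miR-214-5p: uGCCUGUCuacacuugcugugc
The longest annotated 3' UTR of each member was searched for 7-base matches to either microRNA, on the transcript strand. These were CCTGCTG or CTGCTGA for miR-214-3p and GACAGGC or ACAGGCA for miR-214-5p. The first of each pair matches bases 2 to 8, and the second matches bases 2 to 7 followed by an A. A miR-214-3p match was found in 1 of 10 members, against 32.8% of 16895 genes of the table with an annotated 3' UTR, and a miR-214-5p match in 2 of 10, against 19.5%. The members' 3' UTRs had a median length of 918 bases, against 1192 over all those genes. The 3 matches are printed below with up to 8 bases on each side and the 7 bases of each in capitals. That of Cd163 is of the second kind, so it matches bases 2 to 7 only. Its last A does not pair with base 1 of miR-214-3p, which is also an A.
Cd163, miR-214-3p, base 121 of 954: ctggaactCTGCTGAacctgcaa
Mrc1, miR-214-5p, base 573 of 882: caaggtttGACAGGCtgaatatt
Lyve1, miR-214-5p, base 267 of 1565: cactcagaGACAGGCttccaggt
Marco, with a 3' UTR of 121 bases, and the other members had no match of 7 bases in this part of their transcripts. A match is a description and not a site shown to be used, and shorter matches, other transcripts and coding sequence were not searched.

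All 10 members had a positive log2 fold, with higher values in Pkd2-miR-214-KO kidneys, and 5 of them passed an adjusted p of 0.05: Marco, Lyve1, F13a1, Cd163 and Chil3. Over all genes tested, 0.104% of genes were called higher at that threshold and 0.124% in either direction. All 10 also had an unadjusted p under 0.05, which 3.1% of all genes had in the upward direction and 4.82% in either direction. Because this comparison chose the members, nothing follows from these shares. The members' median log2 fold was 1.84, with a range of 0.51 to 5.99, beside a median of 0.00 over all 20138 genes. The direction was read from the Mir214 locus, since the header does not name it, and Mir214 is therefore no independent check of the labels. Mir214 fell by 7.62 ± 1.08 (approximate SE) on the log2 scale per the authors' deposited table. Its mean level was low, at -1.83 log2 CPM. Dnm3os, the host RNA of miR-214, had a log2 fold of -1.23 ± 0.37 (adjusted p = 0.213) and Pkd2 one of -0.11 ± 0.23 (adjusted p = 1) per the authors' deposited table. The labels give no sex, and Xist, the RNA of the inactive X chromosome in female cells, named after its value was seen, was higher by a log2 fold of 10.21 ± 2.36 (adjusted p = 0.0168) at 9.02 log2 CPM per the authors' deposited table. Its part in the members' folds was not tested, and a difference in sex between the groups cannot be told apart from genotype here.

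**Figure D1:**
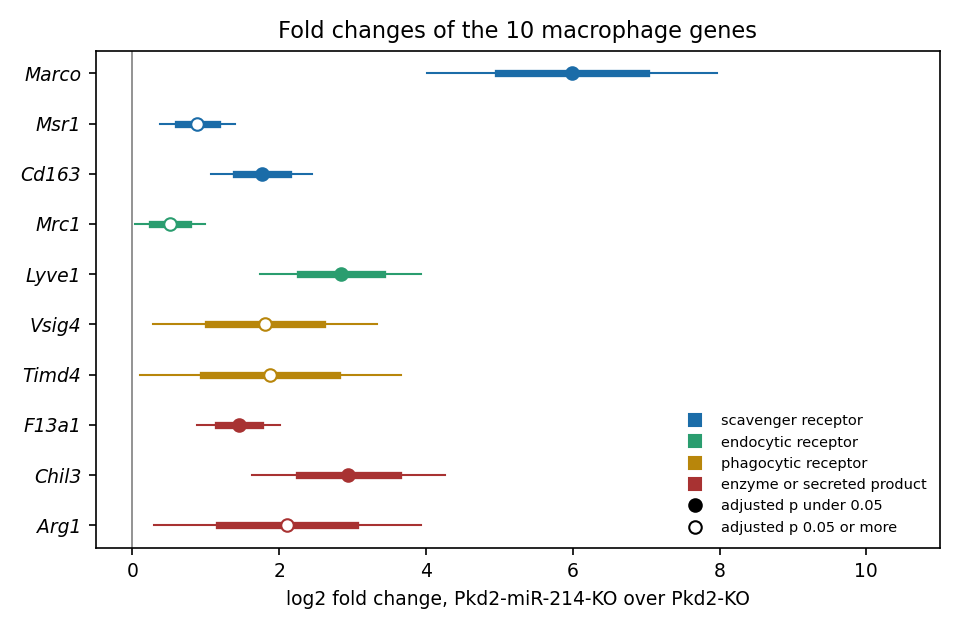
Log2 fold of each of the 10 genes (x axis, Pkd2-miR-214-KO over Pkd2-KO), grouped by role; thick bars are the approximate SE, thin bars the approximate 95% interval, and filled points have an adjusted p under 0.05. Marco stands at 5.99, apart from the other 9, whose folds lie between 0.51 and 2.94.

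The scavenger receptors spanned the widest range. Marco is a class A scavenger receptor that binds bacteria and particles (chromosome 1, 120474538 to 120505024, minus strand). In healthy mice it is found on macrophages of sites such as the spleen, lymph nodes, liver and body cavities. Its log2 fold was 5.99 ± 1.01 (adjusted p = 1.27e-05) per the authors' deposited table, the 5th smallest p of all genes. Together with its mean of 2.63 log2 CPM, the read count scaled by library size,, this fold implies about 12.2 CPM in Pkd2-miR-214-KO kidneys, against 0.192 CPM in Pkd2-KO kidneys. These group levels are not measured means. They follow from the mean CPM and the fold if both genotypes weigh equally, carry no error, and are least reliable at low levels, where the authors' fit may add a prior count.

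Msr1, the class A scavenger receptor for modified lipoproteins and a structural relative of Marco (chromosome 8, 39581685 to 39642673, minus strand), had a far smaller fold. In the authors' deposited table its log2 fold was 0.89 ± 0.26 (adjusted p = 0.202), which implies 19.0 CPM in Pkd2-miR-214-KO kidneys, against 10.3 CPM in Pkd2-KO kidneys. Cd163, which takes up complexes of haemoglobin and haptoglobin (chromosome 6, 124304656 to 124330527, plus strand), rose by a log2 fold of 1.76 ± 0.35 (adjusted p = 0.00126) per the authors' deposited table, with implied levels of 42.9 CPM in Pkd2-miR-214-KO and 12.7 CPM in Pkd2-KO kidneys.

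The endocytic receptors differed from each other in level and in fold. Lyve1, a hyaluronan receptor of lymphatic endothelium and of perivascular macrophages (chromosome 7, 110850607 to 110863239, minus strand), rose by a log2 fold of 2.84 ± 0.56 (adjusted p = 0.000931) per the authors' deposited table. The implied Lyve1 levels were 19.1 CPM in Pkd2-miR-214-KO and 2.67 CPM in Pkd2-KO kidneys. Mrc1, the mannose receptor, which binds glycoproteins with mannose, fucose or sulfated sugars (chromosome 2, 14229392 to 14332057, plus strand), was the most abundant member and had the smallest fold. Its log2 fold was 0.51 ± 0.24 (adjusted p = 0.926) per the authors' deposited table, with implied levels of 96.5 CPM in Pkd2-miR-214-KO and 67.5 CPM in Pkd2-KO kidneys.

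Both phagocytic receptors had low means, below 0 log2 CPM. Vsig4, a complement receptor of liver and other resident macrophages (chromosome X, 96247203 to 96293438, minus strand), averaged -0.46 log2 CPM with a log2 fold of 1.81 ± 0.78 (adjusted p = 0.772) per the authors' deposited table. Timd4, which binds phosphatidylserine on dying cells (chromosome 11, 46810800 to 46844332, plus strand), averaged -0.64 log2 CPM with a log2 fold of 1.87 ± 0.91 (adjusted p = 0.962) per the authors' deposited table. Implied levels were 1.13 CPM for Vsig4 and 1.01 CPM for Timd4 in Pkd2-miR-214-KO kidneys, against 0.324 CPM and 0.274 CPM in Pkd2-KO kidneys. Their point estimates were close to that of Cd163, but their intervals reached down to 0.28 for Vsig4 and 0.10 for Timd4.

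Among the enzymes and secreted products, F13a1 and Chil3 rose. F13a1, the transglutaminase subunit of coagulation factor XIII, which resident macrophages make (chromosome 13, 36867178 to 37050244, minus strand), had a log2 fold of 1.45 ± 0.29 (adjusted p = 0.000931) per the authors' deposited table. This implies 48.4 CPM in Pkd2-miR-214-KO kidneys, against 17.7 CPM in Pkd2-KO kidneys. Chil3, the chitinase-like lectin Ym1 (chromosome 3, 106147554 to 106167564, minus strand), had a log2 fold of 2.94 ± 0.67 (adjusted p = 0.0157) per the authors' deposited table, with implied levels of 9.78 CPM in Pkd2-miR-214-KO and 1.27 CPM in Pkd2-KO kidneys. Chil3 has a close paralog, Chil4, and their longest transcripts were 94.4% identical over 1538 aligned bases, so the division of reads between them is uncertain. Chil4, named as the paralog and not by the rule for named genes, was at a mean of -2.92 log2 CPM with a log2 fold of -0.79 (adjusted p = 1) per the authors' deposited table.

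Arg1, the enzyme that splits arginine into ornithine and urea (chromosome 10, 24915221 to 24927484, minus strand), had a fold larger than those of F13a1 and Cd163 but did not pass. Its log2 fold was 2.11 ± 0.93 (adjusted p = 0.817) per the authors' deposited table, and the implied levels were 15.6 CPM in Pkd2-miR-214-KO and 3.60 CPM in Pkd2-KO kidneys.

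**Figure D2:**
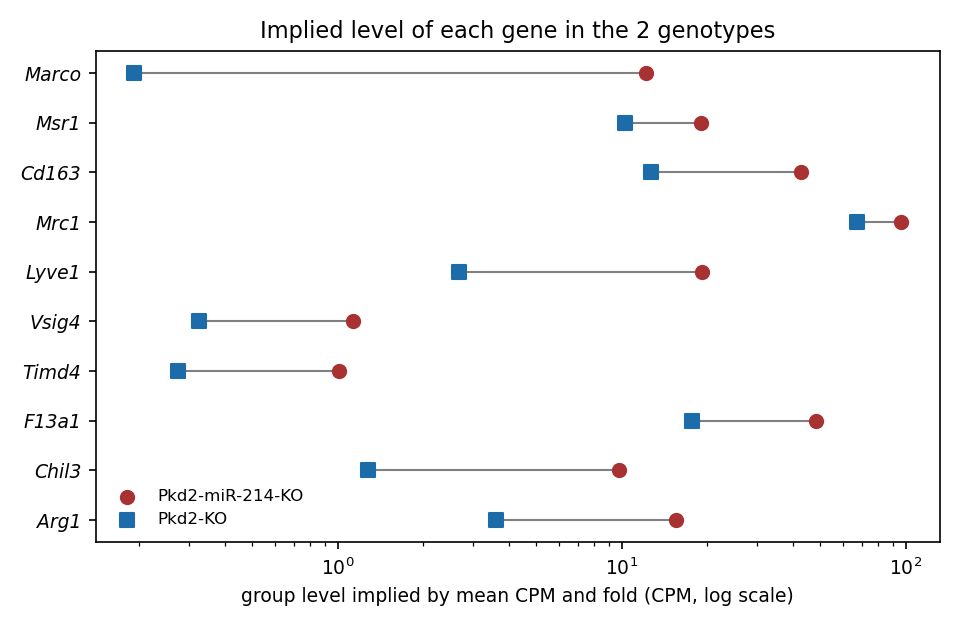
Group level of each gene implied by the mean CPM and the fold (x axis, CPM on a log scale), with circles for Pkd2-miR-214-KO and squares for Pkd2-KO. The circle lies to the right for all 10 genes, and the distance is widest for Marco (12.2 and 0.192 CPM) and narrowest for Mrc1 (96.5 and 67.5 CPM).

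Levels of different genes were compared per kilobase of the longest annotated transcript, as the mean over both genotypes. Mrc1 was highest at 15.3 CPM per kb, followed by F13a1 (8.36 CPM per kb), Arg1 (6.48 CPM per kb) and Cd163 (6.26 CPM per kb). Msr1 (4.02 CPM per kb), Lyve1 (3.76 CPM per kb), Chil3 (3.59 CPM per kb) and Marco (3.21 CPM per kb) lay close together. Vsig4 (0.508 CPM per kb) and Timd4 (0.294 CPM per kb) were lowest. Without values per library the spread around these levels is not known, so neighbours in this order cannot be told apart. The plot of fold against mean level shows that members of similar level can differ in fold, as Marco and Chil3, with means of 2.63 and 2.47 log2 CPM, have log2 folds of 5.99 and 2.94.

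**Figure D3:**
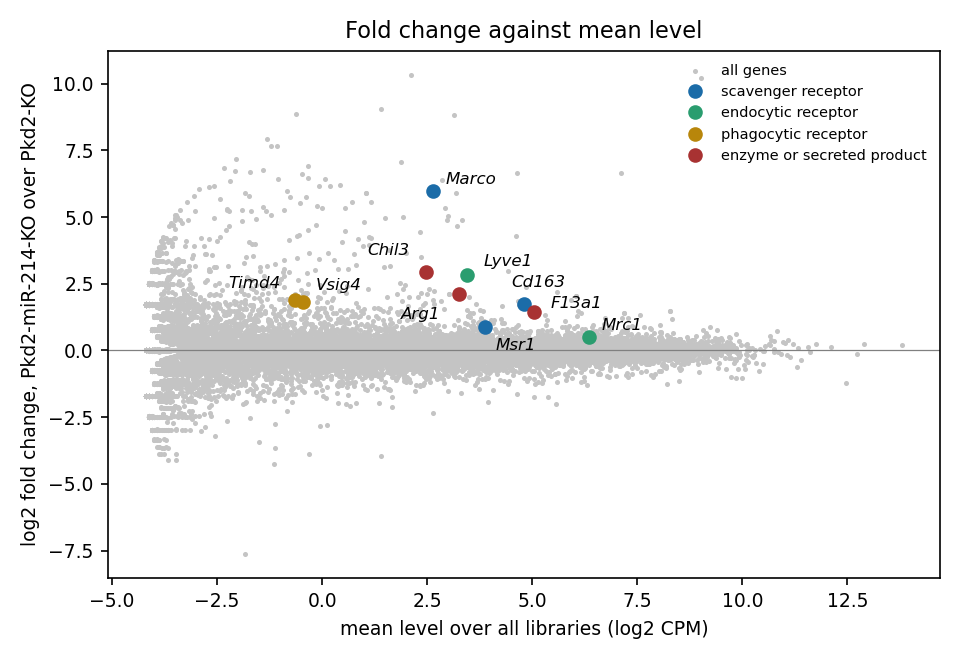
Log2 fold (y axis, Pkd2-miR-214-KO over Pkd2-KO) against the mean level in log2 CPM (x axis) for 20138 genes in grey and the 10 members in colour by role. Vsig4 and Timd4 lie below 0 log2 CPM, where folds of grey genes scatter widely, and Mrc1 lies at 6.36 log2 CPM.

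The approximate SE behind each fold was set beside those of genes with a similar mean level, within 0.25 log2 CPM. The SE of Msr1 was ordinary, at the 42.0 percentile of 1025 such genes, with a median SE of 0.27. Those of Mrc1 (80.5 percentile), F13a1 (87.5 percentile) and Vsig4 (89.7 percentile) were higher. Timd4 (94.2 percentile), Cd163 (95.9 percentile), Chil3 (96.4 percentile) and Lyve1 (98.1 percentile) followed. The widest were Arg1 (99.3 percentile, SE 0.93 against a median of 0.30) and Marco (99.5 percentile, SE 1.01 against a median of 0.35). Whether any of these folds rests on 1 animal cannot be seen in the table.

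**Figure D4:**
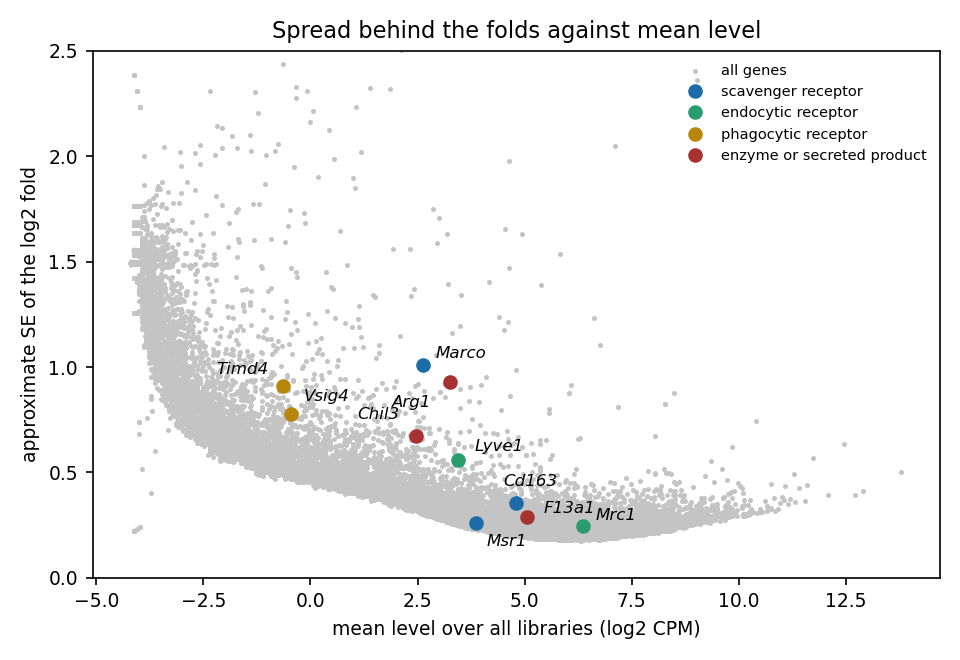
Approximate SE of the log2 fold (y axis, cut at 2.5, above which 3 genes lie) against the mean level in log2 CPM (x axis) for all genes in grey and the 10 members in colour by role. Arg1 and Marco lie above the main band of genes at their level, and Msr1 lies within it.

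Upstream sequence was examined because 5 members rose in the same comparison. RefSeq promoter windows on GRCm38.p6, from 250 bases before to 50 after the start, matched 7 of the 10 members in 8 windows, with no entry for Lyve1, Msr1 and Arg1. The STAT6 motif, TTC and GAA separated by 4 bases of any kind, was in 0 of 8 windows and in 6.95% of 32851 promoters. The C/EBP motif TTGCNNAA was likewise in 0 of 8 windows (10.8% of all promoters), the PU.1 motif GAGGAAGT in 1, of F13a1 (3.20%), and the antioxidant element TGANNNNGC in 3, of Chil3, Timd4 and Vsig4 (41.3%), all searched on both strands. A missing match says only that these letters are not in this window. The core of ETS factors such as PU.1, GGAA or its reverse complement TTCC, was then counted in the 80 bases before the start, a choice made after the other counts were seen. It occurred 3 times for Marco, once for Cd163, 2 times for the upstream start of F13a1 and 3 times for Chil3, against a median of 1 over all promoters. The other start of F13a1 had 1 core, and of the members that did not pass Vsig4 had 4, Mrc1 had 2 and Timd4 had 2. These sequences are printed on the gene's own strand with the cores in capitals, for the called members that have a window.
Marco, chr1:120505025-120505104, minus: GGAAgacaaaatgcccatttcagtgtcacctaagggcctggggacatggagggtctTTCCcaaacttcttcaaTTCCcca
Cd163, chr6:124304571-124304650, plus: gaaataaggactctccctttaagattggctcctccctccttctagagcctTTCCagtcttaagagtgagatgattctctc
F13a1, chr13:37050245-37050324, minus: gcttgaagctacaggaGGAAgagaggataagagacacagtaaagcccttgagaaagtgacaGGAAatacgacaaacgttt
Chil3, chr3:106167565-106167644, minus: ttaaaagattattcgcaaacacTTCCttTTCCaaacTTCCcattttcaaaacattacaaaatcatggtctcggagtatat
The cores of Chil3 lie close together, while those of Marco and F13a1 are spread over the stretch.

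The genes around the members were described by 18 lists, from which the members themselves were left out, and which held 284 different genes of the table. Of these 284, 3 passed an adjusted p of 0.05, all higher in Pkd2-miR-214-KO: Hmox1, Saa3 and Bhmt. Over all 20138 genes, 0.124% passed in either direction. For the counts by list, 3.1% of all genes had an unadjusted p under 0.05 upward and 4.82% in either direction. Pan-macrophage genes were centred on 0, with 11 of 20 positive, 9 negative, a median log2 fold of 0.03 and 0 called by the authors' edgeR test, and 0 of the 20 had an unadjusted p under 0.05. Their smallest p-values belonged to Cd14 (0.36 ± 0.26), Adgre1, listed as Emr1 and encoding F4/80 (-0.37 ± 0.27), Ctss (0.26 ± 0.22) and Aif1 (-0.41 ± 0.35) per the authors' deposited table. The summed implied level of the 20 genes was 1627 CPM in Pkd2-miR-214-KO and 1515 CPM in Pkd2-KO kidneys. In whole kidney, a different number of cells of a type and a different amount of RNA per cell cannot be told apart.

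**Figure D5:**
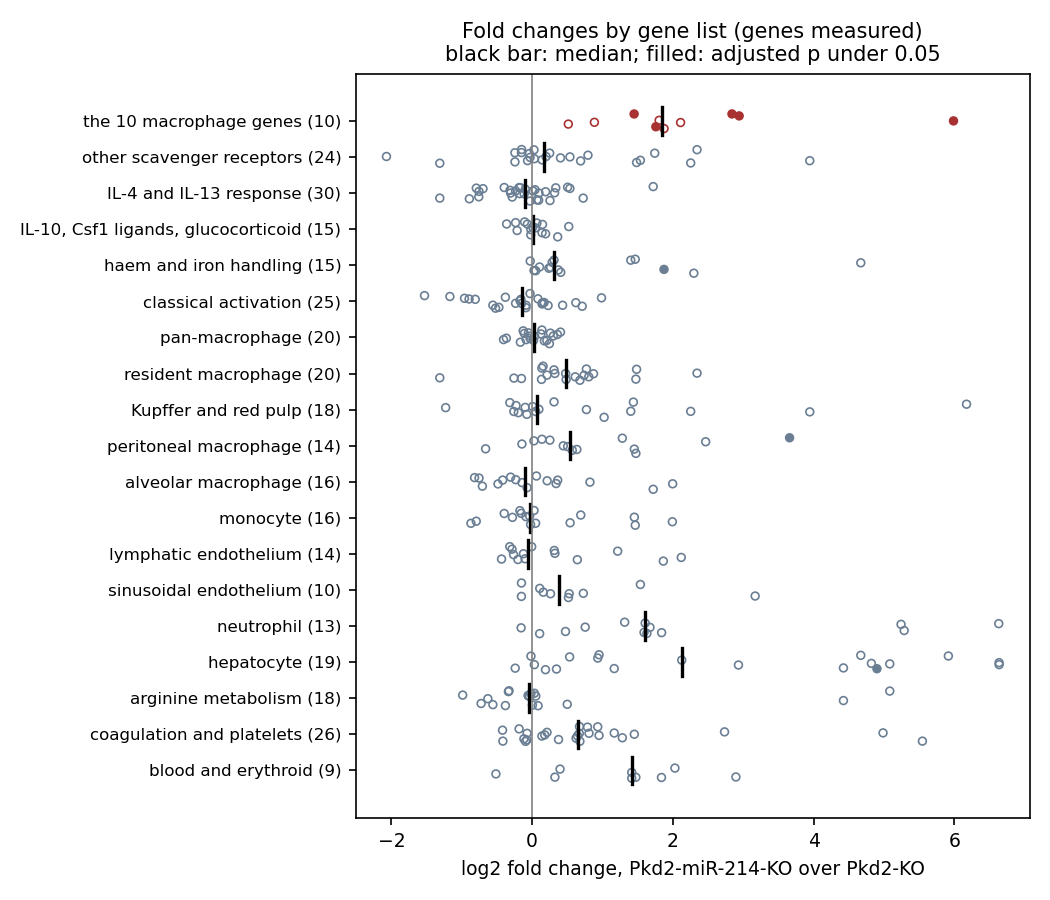
Log2 fold of each gene (x axis, Pkd2-miR-214-KO over Pkd2-KO) in the 10 members and in 18 further lists, with the number of genes measured; black bars are medians and filled points have an adjusted p under 0.05. The pan-macrophage list is centred at 0.03, the hepatocyte list at 2.13 and the neutrophil list at 1.61.

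Other scavenger and clearance receptors had values in both directions. Of 24 such genes, 15 had a positive and 9 a negative log2 fold, with a median of 0.17 and 0 called, while 5 had an unadjusted p under 0.05 upward and 2 downward. Cd209b, a lectin of marginal zone macrophages, had a log2 fold of 3.95 ± 1.29 (adjusted p = 0.302), and Scara5, a ferritin receptor of stromal cells, 1.74 ± 0.58 (adjusted p = 0.315) per the authors' deposited table. Lectins of dendritic cells and of another macrophage subset had negative values, with -2.07 ± 0.67 for Cd209a (adjusted p = 0.291) and -1.31 ± 0.48 for Mgl2 (adjusted p = 0.475) per the authors' deposited table.

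The interleukin-4 and interleukin-13 pathway was described from ligands to targets in a list of 30 genes, of which 13 had positive and 17 negative folds, with a median of -0.10 and 0 called. A single gene of this list, Mgl2, had an unadjusted p under 0.05, and it was lower. The receptor chain genes Il4ra (0.25 ± 0.20) and Il13ra1 (0.32 ± 0.22) had adjusted p-values of 1, and the ligand genes Il4 and Il13 were at or below -4.06 log2 CPM per the authors' deposited table. Il4ra, Il4 and Il13 are named for their place in the pathway, after their values were seen. Retnla, a secreted target of STAT6 named here after its value was seen, had a log2 fold of -0.89 ± 0.88 (adjusted p = 1) per the authors' deposited table. Its approximate 95% interval, from -2.61 to 0.83, leaves its sign unsettled. Genes of interleukin-10 signalling, ligands of the Csf1 receptor and glucocorticoid response had a median of 0.01, with 8 of 15 positive, 0 called and 0 with an unadjusted p under 0.05. The largest fold among these 15 was that of the glucocorticoid-induced Tsc22d3 (0.52 ± 0.32, adjusted p = 1) per the authors' deposited table.

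Genes of classical activation had a median log2 fold of -0.15, with 9 of 25 positive and 0 called; without adjustment 1 passed upward and 2 downward. Cd38, an enzyme that consumes NAD, had a log2 fold of 0.71 ± 0.21 (adjusted p = 0.195) and the interferon-induced chemokine genes Cxcl11 and Cxcl10 had -1.17 ± 0.50 (adjusted p = 0.770) and -0.81 ± 0.39 (adjusted p = 0.962) per the authors' deposited table. Arginine metabolism apart from Arg1 had a median of -0.04, with 7 of 18 positive and 0 called, and 2 genes passed upward and 1 downward without adjustment. Nos2, which competes with arginase for arginine and is named after its value was seen, had -0.56 ± 0.47 (adjusted p = 1) per the authors' deposited table. The other urea cycle genes differed among themselves, with log2 folds of 5.08 ± 1.77 for Otc (adjusted p = 0.400) and 4.42 ± 1.56 for Cps1 (adjusted p = 0.421), both typical of hepatocytes, against 0.03 ± 0.38 for Ass1 (adjusted p = 1) and -0.02 ± 0.26 for Asl (adjusted p = 1), which kidney tubules also express, per the authors' deposited table. Ass1 and Asl are named after their values were seen.

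Genes of haem and iron handling, the route that begins with uptake by Cd163, were mostly positive, with 14 of 15 folds above 0, a median of 0.31, 1 called and 4 with an unadjusted p under 0.05 upward. Hmox1, which degrades haem, rose by a log2 fold of 1.87 ± 0.39 (adjusted p = 0.00255) per the authors' deposited table, with implied levels of 95.4 CPM in Pkd2-miR-214-KO and 26.0 CPM in Pkd2-KO kidneys. Which cells of the kidney hold the Hmox1 RNA was not tested. Spic, a transcription factor of iron-recycling macrophages, had 1.40 ± 0.66 (adjusted p = 0.924), and Hpx, which binds free haem and is made by liver, 4.67 ± 1.39 (adjusted p = 0.207) per the authors' deposited table. Blood and erythroid genes were positive in 8 of 9 cases, with a median of 1.42, 0 called, 3 with an unadjusted p under 0.05 upward, and summed implied levels of 1086 CPM in Pkd2-miR-214-KO and 407 CPM in Pkd2-KO kidneys. Hba-a1 and Hba-a2, named after their values were seen, had the same deposited fold (1.42) and mean level (7.19 log2 CPM). The same values therefore enter the median and the sums more than once. The part of the blood genes in the Cd163 value was not tested.

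Resident and interstitial macrophage genes had a median log2 fold of 0.48, with 17 of 20 positive and 0 called, and 5 passed upward and 1 downward without adjustment. The chemokine genes Ccl6 (0.77 ± 0.23, adjusted p = 0.213) and Ccl9 (0.81 ± 0.30, adjusted p = 0.512) and the carbonyl reductase gene Cbr2 (0.87 ± 0.36, adjusted p = 0.716) had the smallest p-values together with Mgl2 per the authors' deposited table. Macrophage genes of other sites were compared because Marco, Vsig4 and Timd4 are also known from liver, spleen and body cavities. Liver and red pulp genes had a median of 0.07 with 11 of 18 positive and 0 called, and 4 passed upward and 1 downward without adjustment. The Kupffer cell gene Clec4f, a defining marker, averaged -2.58 log2 CPM with a log2 fold of 6.17 ± 2.05 (adjusted p = 0.325) per the authors' deposited table, or 0.331 CPM implied in Pkd2-miR-214-KO and 0.00458 CPM in Pkd2-KO kidneys. Fabp7 of the same list, at a higher mean of 0.63 log2 CPM, had a negative fold of -1.23 ± 0.52 (adjusted p = 0.756) per the authors' deposited table.

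Genes of peritoneal macrophages had a median of 0.54, with 12 of 14 positive, 1 called and 5 with an unadjusted p under 0.05 upward. Saa3, an acute-phase gene that several cell types express, rose by a log2 fold of 3.66 ± 0.84 (adjusted p = 0.0165), Prg4, a lubricating glycoprotein also made by mesothelium, had 2.47 ± 0.70 (adjusted p = 0.169) and the coagulation factor gene F10 1.45 ± 0.48 (adjusted p = 0.302) per the authors' deposited table. Alveolar macrophage genes (median -0.11, 7 of 16 positive) and monocyte genes (median -0.03, 7 of 16 positive) had 0 called, and without adjustment 1 alveolar gene passed in each direction and 2 monocyte genes passed upward and 1 downward. The alveolar gene with the smallest p was Atp6v0d2, which kidney intercalated cells also express, with 0.82 ± 0.26 (adjusted p = 0.232) per the authors' deposited table.

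Lists of non-macrophage cells that share a member were described in the same way. Lymphatic endothelial genes had a median of -0.05, with 6 of 14 positive and 0 called, although Mmrn1 (1.86 ± 0.61, adjusted p = 0.294) and Ccl21a (2.12 ± 0.88, adjusted p = 0.727) passed without adjustment per the authors' deposited table. Prox1, the defining transcription factor of that lineage, named after its value was seen, had a log2 fold of -0.12 ± 0.44 (adjusted p = 1) per the authors' deposited table. Sinusoidal endothelial genes had a median of 0.39, with 8 of 10 positive and 0 called, and 2 passed upward without adjustment, Fcgr2b (0.52 ± 0.23, adjusted p = 0.851) and Clec4g (3.17 ± 1.51, adjusted p = 0.937) per the authors' deposited table. The part of these endothelial cells in the Lyve1 and Mrc1 values was not tested.

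Hepatocyte and neutrophil genes had larger medians than any of the macrophage lists beside the members. Hepatocyte genes apart from Arg1 had a median log2 fold of 2.13, with 17 of 19 positive, 1 called and 12 with an unadjusted p under 0.05 upward. Bhmt, a methyltransferase abundant in liver, rose by 4.90 ± 1.16 (adjusted p = 0.0235), and Apoa1 (5.92 ± 1.63, adjusted p = 0.136), Apoa2 (2.93 ± 0.85, adjusted p = 0.196) and Ahsg (6.64 ± 1.98, adjusted p = 0.206) did not pass per the authors' deposited table. The summed implied level of the hepatocyte list was 1877 CPM in Pkd2-miR-214-KO and 1362 CPM in Pkd2-KO kidneys, and Ass1 alone stood at 807 CPM in Pkd2-miR-214-KO and 790 CPM in Pkd2-KO kidneys. Alb, which encodes albumin and is named after its value was seen, did not pass either, with 6.64 ± 2.05 (adjusted p = 0.226) per the authors' deposited table. Its implied level was 274 CPM in Pkd2-miR-214-KO and 2.76 CPM in Pkd2-KO kidneys. The SEs of Ahsg and Alb were wide, at the 99.9 percentile of genes of similar level, as was that of Apoa1 (99.8 percentile). Such wide SEs were not particular to hepatocyte genes. Those of Marco (99.5 percentile), Arg1 (99.3 percentile) and the blood gene Hba-a1 (99.7 percentile) were also wide. The part of liver RNA in the Arg1, Marco, Vsig4 and Timd4 values was not tested.

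Neutrophil genes had a median of 1.61, with 12 of 13 positive, 0 called and 8 with an unadjusted p under 0.05 upward. The granule genes Ngp (6.63 ± 1.75, adjusted p = 0.10), Mpo (5.29 ± 1.63, adjusted p = 0.226), Camp (5.24 ± 1.75, adjusted p = 0.331) and Ltf (1.63 ± 0.58, adjusted p = 0.424) had the smallest p-values per the authors' deposited table. Ngp, Mpo and Camp averaged only -0.48, -2.28 and -1.69 log2 CPM. Among genes with higher means, named after their values were seen, S100a9 had 1.32 ± 0.58 at 2.12 log2 CPM. Csf3r had -0.16 ± 0.32 at 2.96 log2 CPM. The summed implied level of the 13 neutrophil genes was 874 CPM in Pkd2-miR-214-KO and 518 CPM in Pkd2-KO kidneys, most of it from Lcn2, named after its value was seen, which injured tubules also make. Without Lcn2 the other 12 genes summed to 33.6 CPM in Pkd2-miR-214-KO and 20.2 CPM in Pkd2-KO kidneys. The part of neutrophils in the Chil3 value was not tested. Coagulation and platelet genes, the list nearest to F13a1, had a median of 0.66 with 19 of 26 positive, 0 called and 8 with an unadjusted p under 0.05 upward. The platelet gene Treml1 (2.73 ± 0.84, adjusted p = 0.226) and the liver genes Plg (4.99 ± 1.56, adjusted p = 0.236) and F2 (5.55 ± 2.02, adjusted p = 0.475) had the smallest p-values there beside F10 per the authors' deposited table.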

How the data were processed

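RNA of whole kidneys from 3 Pkd2-miR-214-KO and 3 Pkd2-KO mice was sequenced. TopHat2 2.0.12, edgeR and the build mm10 appear in the submitters' processing notes, without roles or settings, and how reads were counted, filtered and normalized is not stated there. The series text says polyA RNA, while the labels' protocol names a total RNA kit. Per the file headers, the authors deposited a log2 fold, a mean log2 CPM, a likelihood ratio (a score), and raw and adjusted p-values. These cover 20138 genes and hold no values per library. The authors' test was therefore described as planned, and the count test planned for the case of counts per library was not run. The deposited p-values equalled the chi-square tail of the score within 6.25e-15, and the adjusted ones the Benjamini-Hochberg adjustment within 5.1e-14.

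The approximate SE is |log2 fold| over the root of the likelihood ratio, and intervals are 1.96 SE on either side. It is poor at low counts. Whether the mice were littermates is not stated, and p-values measure only the spread between these animals. Members and lists were chosen with earlier results of these data known. The text names all members, and from each list the called genes and up to 4 with the smallest p; exceptions are marked, and some genes under this rule are not repeated where another list gives them, or are not reported here. Of the list genes, Fcn3 and Ahsp were not matched. Alternatives were other thresholds and adjustments, an F distribution on 1 and 4 degrees of freedom, a minimum mean log2 CPM of 0, the mean and another centring. Gene positions and 3' UTRs are from GENCODE M21 (GRCm38, the assembly of mm10). Calculations were tested on simulated data. Tools were scipy 1.17.1, numpy 2.4.6, pandas 2.3.3, Biopython 1.88 and matplotlib 3.10.9 under Python 3.11.15.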

Additional observations from a re-analysis of the deposited data

How the results depend on the processing

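The count of 5 called members stayed at 5 with an adjusted p of 0.1 and with adjustment over genes of at least 0 mean log2 CPM, and was 4 with Benjamini-Yekutieli adjustment, where Chil3 did not pass (adjusted p = 0.164). It was 10 with an unadjusted p under 0.05, where the count over the 284 genes of the accompanying lists was 59 in place of 3. Over all 20138 genes the count was then 970 in place of 25. With an F distribution on 1 and 4 degrees of freedom 0 members and 0 genes of the table were called by that test. Without adjustment, 6 members and 241 genes in all had an F p under 0.05. The smallest F p of any gene, 0.000504, did not pass the Benjamini-Hochberg adjustment over 20138 genes. The members' median log2 fold of 1.84 was 1.93 over the 8 members of at least 0 mean log2 CPM, 2.22 as a mean and 1.84 after subtracting the median of all genes. Leaving out an animal, another scaling and a filter on counts were not run, since they need values per library. No paired analysis was possible because the columns carry no values per library and the animal numbers differ between genotypes.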
